A study of Mus musculus with 32 samples.

Results

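The CBX and PHC genes of canonical Polycomb repressive complex 1 (PRC1) were examined together with 2 further genes of the complex, Scmh1 and Bmi1, in mouse embryonic stem cells (mESCs). The 9 genes were Cbx2, Cbx6, Cbx7, Cbx8, Phc1, Phc2, Phc3, Scmh1 and Bmi1. They were chosen by symbol, with earlier results of these data known. Each was listed once among the 24028 gene symbols of each RNA-seq library. The libraries were 1 from WT mESCs and 1 from mESCs labelled Eed-/-, both labelled as TT2, a mouse ES cell line, and both grown with serum and leukemia inhibitory factor on gelatin. Labels of Eed-/- samples of the study's other assays name another strain instead. The mutation in the RNA-seq cells, and whether they were a single clone, were not given in the sources used here. The study related Polycomb to DNA methylation valleys (DMVs), which are long regions of low DNA methylation, and its RNA-seq asked how transcript levels differ in mESCs deficient in EED. With 1 library per genotype differences have no replicate check, and no p-values are given.

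PRC2, which contains EED, places methyl groups on lysine 27 of histone H3. In canonical PRC1 a CBX protein binds this mark through its chromodomain, a PHC protein links complexes to each other through its SAM domain, and a PCGF protein pairs with RING1 or RNF2 to attach ubiquitin to histone H2A. BMI1 is the PCGF protein also called PCGF4, and SCMH1 is a SAM-domain protein of the Sex comb on midleg family that associates with PHC proteins. CBX7 is the CBX protein best known from self-renewing ES cells, whereas CBX2 and CBX8 are better known from differentiating cells.

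Levels are given as FPKM, fragment numbers scaled to transcript length and to the size of the library, so genes can be compared with each other per length. From the steps between low FPKM values, depth was about 7230000 fragments (WT) and 6450000 fragments (the library labelled Eed-/-). Of low values, 79.9% of 841 and 80.8% of 943 were whole to within 0.1 fragments. For Eed itself the deposited FPKM was 70.9 in the library labelled Eed-/- against 63.0 in WT, so the Eed transcript was not lower. Since the mutation in these cells was not given in the sources used here, this level does not check the label either way. All 10 mESC markers were present, at 25.5 to 393 FPKM (WT) and 44.4 to 373 FPKM (Eed-/-). Over 7 primitive endoderm markers summed FPKM was 56.1 in the library labelled Eed-/- against 14.9 in WT, mostly Lama1 and Col4a1. Lama1 was at 8.25 FPKM in WT and 33.5 FPKM in the other library, and Col4a1 at 5.62 and 19.1 FPKM. The other markers of this list were at 1.35 FPKM or less in both libraries. Sox17 was listed at 0 in WT and Foxa2 at 0 in the library labelled Eed-/-. It was 27.8 and 128 over 6 fibroblast markers, mostly Vim, with Col3a1 listed at 0 in the library labelled Eed-/-. The sums were 20.01 and 10.8 over 6 trophoblast markers, with Elf5 at 0 in both libraries. Krt8 (6.88 and 3.53 FPKM), Krt18 (12.1 and 4.69 FPKM) and Cdx2 (0.562 and 0.0788 FPKM) were lower in the library labelled Eed-/-. Eomes (0.478 and 1.93 FPKM) and Hand1 (0 and 0.541 FPKM) were higher there. Over 5 neural progenitor markers the sums were 9.99 and 13.04, with Neurog2 at 0 in both and Zic1 at 0 in WT. In log2(quantile-normalized FPKM + 1), at least 2-fold upward were 1 mESC, 2 primitive endoderm, 2 fibroblast and 1 trophoblast marker. Downward by as much was 1 trophoblast marker. This scale understates the change of low markers. Among these, Gata4 (0.431 and 1.35 FPKM) and Sox7 (0.314 and 1.15 FPKM) were higher in the library labelled Eed-/- and Cdx2 was lower. The part of these markers in the results below was not tested, and fewer cells of a type cannot be told apart from less RNA per cell in bulk RNA.

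In WT mESCs the CBX genes were led by Cbx7 and the PHC genes by Phc1. Phc1 had the highest deposited level of the 9 genes at 34.3 FPKM, with a 95% counting interval of 32.3 to 36.6. These intervals are exact Poisson intervals on approximate fragment numbers and cover counting error only, not the spread between cultures. Cbx7 came next at 24.0 FPKM (22.1 to 26.1), then Cbx2 at 13.0 FPKM (11.7 to 14.5) and Cbx6 at 5.63 FPKM (4.92 to 6.41). The intervals of these 4 genes did not overlap. Phc2 at 3.62 FPKM and Scmh1 at 3.36 FPKM followed, and their intervals overlapped. Cbx8 at 1.82 FPKM, Phc3 at 1.16 FPKM and Bmi1 at 1.14 FPKM were lowest, and the interval of each overlapped that of the next. At a quantile-normalized FPKM of at least 2, the level used here for expressed genes, 6 of the 9 genes were expressed in WT, and the 3 below it were Cbx8, Phc3 and Bmi1. This count depended on the level chosen, since all 9 genes reached levels of 1 and 0.5. The interval of the deposited Cbx8 value, 1.34 to 2.45, also spanned 2.

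The order differed in the library labelled Eed-/-. Phc1 was again highest, at 36.1 FPKM (33.9 to 38.5). Cbx2 was now above Cbx7, with deposited levels of 19.1 FPKM (17.4 to 21.0) and 12.7 FPKM (11.3 to 14.4). Bmi1 at 7.35 FPKM and Cbx8 at 6.89 FPKM stood next and had overlapping intervals. Phc2 at 4.65 FPKM, Scmh1 at 3.54 FPKM and Cbx6 at 3.34 FPKM came after them, with overlap between each gene and the next, and Phc3 was lowest at 1.39 FPKM. In this library 8 of the 9 genes reached a normalized FPKM of 2, all but Phc3. At levels of 1 and 0.5 all 9 did, as in WT, so the libraries differed in this count only at 2. Of all symbols, 38.7% reached a normalized FPKM of 2 in each library, which quantile normalization makes nearly equal. Summed over the 9 genes, deposited FPKM came to 95.1 here against 88.1 in WT.

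**Figure D1:**
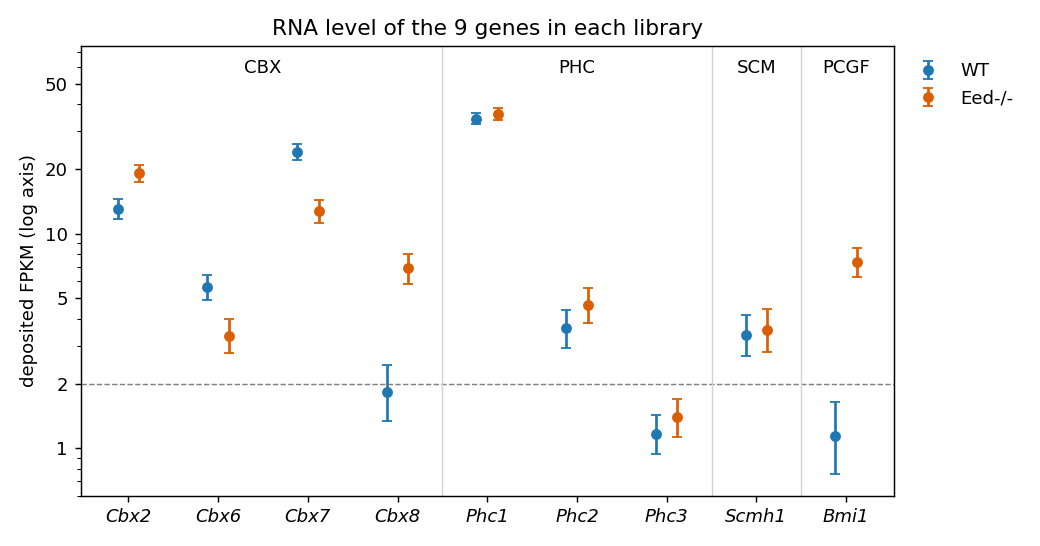
Deposited FPKM (log axis) of the 9 genes, grouped by family, in the WT and Eed-/- libraries. Points are single libraries, bars are 95% counting intervals, and the dashed line marks an FPKM of 2. Bmi1 (1.14 and 7.35 FPKM) and Cbx8 (1.82 and 6.89 FPKM) lie on either side of that line in the 2 libraries, while Phc1 (34.3 and 36.1 FPKM) is at the top in both.

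Promoters of the 4 genes these results turn on, the leading PHC gene, the leading CBX gene of WT and the 2 genes with the largest difference between libraries, are shown because DMVs are read at CG dinucleotides. They are RefSeq promoters on GRCm38.p6, each running from 250 bases before to 50 bases after an annotated start, 5′ to 3′, with CG in capitals. No entry was used for Cbx2.
Phc1, chr6:122340178-122340477, minus strand: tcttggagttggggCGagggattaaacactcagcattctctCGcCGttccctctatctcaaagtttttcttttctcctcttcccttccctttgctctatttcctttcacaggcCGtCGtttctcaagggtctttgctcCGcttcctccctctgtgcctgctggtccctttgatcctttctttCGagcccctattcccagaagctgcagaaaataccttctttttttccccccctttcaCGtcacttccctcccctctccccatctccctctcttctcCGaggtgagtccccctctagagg
Cbx7, chr15:79932597-79932896, minus strand: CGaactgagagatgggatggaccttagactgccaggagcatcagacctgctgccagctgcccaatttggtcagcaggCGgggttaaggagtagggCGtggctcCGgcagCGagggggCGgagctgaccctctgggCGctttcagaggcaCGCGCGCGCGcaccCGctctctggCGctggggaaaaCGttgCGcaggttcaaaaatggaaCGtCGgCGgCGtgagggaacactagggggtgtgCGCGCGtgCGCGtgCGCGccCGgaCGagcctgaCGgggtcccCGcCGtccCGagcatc
Cbx8, chr11:119040864-119041163, minus strand: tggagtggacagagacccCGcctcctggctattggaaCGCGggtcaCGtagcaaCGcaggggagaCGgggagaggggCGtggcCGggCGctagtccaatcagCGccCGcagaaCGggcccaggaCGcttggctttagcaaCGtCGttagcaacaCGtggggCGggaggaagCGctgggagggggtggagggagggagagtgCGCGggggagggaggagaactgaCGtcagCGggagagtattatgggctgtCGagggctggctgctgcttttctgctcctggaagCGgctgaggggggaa
Bmi1, chr2:18676768-18677067, plus strand: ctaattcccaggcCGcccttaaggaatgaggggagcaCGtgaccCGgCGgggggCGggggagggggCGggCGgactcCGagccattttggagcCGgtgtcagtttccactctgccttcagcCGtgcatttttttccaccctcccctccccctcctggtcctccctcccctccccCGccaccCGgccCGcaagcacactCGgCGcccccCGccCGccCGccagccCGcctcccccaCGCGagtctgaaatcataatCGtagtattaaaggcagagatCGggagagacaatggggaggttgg

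CG was dense in 3 of these promoters and sparser in the Phc1 promoter. The Cbx7 promoter held 33 CG dinucleotides, a number reached by 8.56% of 32851 RefSeq promoters of the same length. The Cbx8 promoter held 24 (20% of promoters have as many) and the Bmi1 promoter held 23 (21.5%), against 9 (45.8%) in the Phc1 promoter. The median over all promoters was 7, and 94.6% held at least 1 CG. The GC box GGGCGG, which contains a CG and was searched on both strands, occurred 6 times in the Bmi1 promoter, once each in those of Cbx7 and Cbx8, and not in that of Phc1, and 35.7% of all promoters held it. Of the 11 promoters listed for 8 of the 9 genes, 8 held the box. CG counts in these 11 ran from 0 in 1 of the Scmh1 promoters to 54 in the other, and the 3 Phc2 promoters held 19, 2 and 45. The study's list of genes with a DMV in mESCs holds Cbx7, Cbx8, Phc1 and Bmi1 but not Cbx2, Cbx6, Phc2, Phc3 or Scmh1, and it also holds Pcgf2. The share of all genes on that list was not worked out here, so this membership is not read as a result about these genes. Whether membership goes with level or change was not tested.

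Between the libraries, Bmi1 and Cbx8 passed 2-fold, both upward in the library labelled Eed-/-, and none of the 9 genes passed it downward. Changes are differences in log2(quantile-normalized FPKM + 1), Eed-/- minus WT, a scale that understates the change of low genes. The 2 genes are 22.2% of the 9, against a background of 3.80% of the 14835 genes whose normalized FPKM averaged at least 0.1. Downward, 3.98% of these genes passed 2-fold. Among the 8 genes with a mean of at least 2, the same 2 were higher and 0 were lower, against 4.40% and 4.84% of 9408 genes. The share higher was above the background but rests on 2 genes of a list chosen with earlier results of these data known. A count of 0 lower among 9 genes is near a background of this size. The median change was 0.26 over the 9 genes and 0.01 over all 14835, with 7 of the 9 above 0 and 2 below. With FPKM as deposited, the 2 medians were 0.15 and -0.09.

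**Figure D2:**
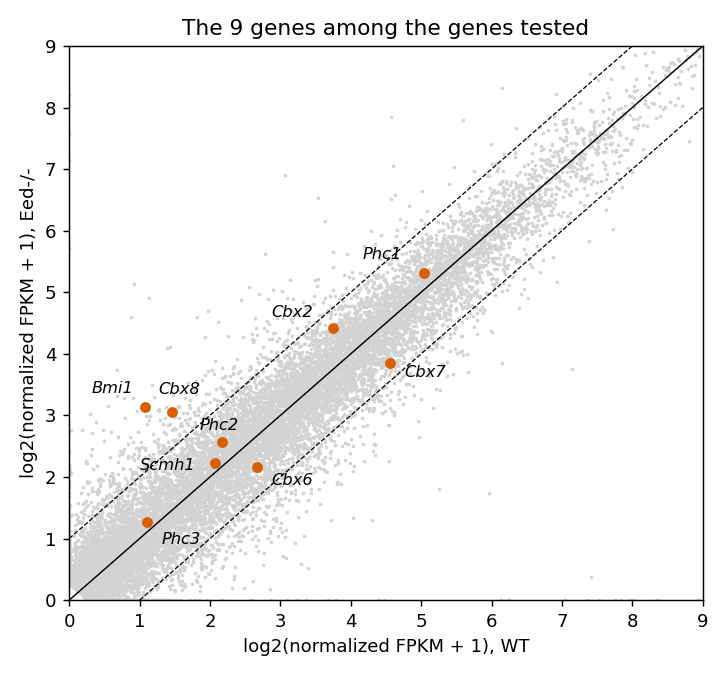
Level in the WT library (x) against the Eed-/- library (y), both as log2(normalized FPKM + 1), for genes tested (grey) and the 9 genes (orange). The solid line marks equal levels and the dashed lines a 2-fold difference, and 121 of 14835 genes lie beyond the axes. Bmi1 and Cbx8 lie above the upper dashed line, and Cbx7 and Cbx6 lie below the solid line but inside the lower dashed one.

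Bmi1 showed the largest difference. Its deposited FPKM was 1.14 (0.754 to 1.64) in WT against 7.35 (6.27 to 8.58) in the library labelled Eed-/-, and the intervals did not overlap. The deposited ratio was 6.48, with a 95% counting interval of 4.32 to 10.1, and the change of 2.05 was higher than that of 99.6% of genes tested. About 28.0 fragments lay behind the WT value and 162 behind the other when the longest of its 7 annotated transcripts was taken as the length. With the shortest coding transcript these fell to about 1 and 8 fragments and the interval widened to 1.20 to 398. Bmi1 lies on chromosome 2 of mm9 from 18598645 to 18608256 on the plus strand. Commd3, a gene of the COMM domain family, ends 786 bases before it on the same strand, and its deposited FPKM was 6.65 and 8.60, a change of 0.47. The median change of 1057 tested genes on chromosome 2 was 0.08.

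Cbx8, also known as Pc3, was the other gene past 2-fold. Its deposited FPKM was 1.82 (1.34 to 2.45) in WT against 6.89 (5.83 to 8.08) in the library labelled Eed-/-, without overlap. The deposited ratio was 3.79 (2.68 to 5.37), and the change of 1.59 exceeded that of 99.0% of genes tested. About 44.7 and 151 fragments lay behind these values. Cbx8 lies on chromosome 11 of mm9 from 118897619 to 118902283 on the minus strand. Cbx2 (118884276 to 118892584, plus strand) ends 5.03 kb from the end of Cbx8. Cbx2 was also higher, with deposited values of 13.0 and 19.1 FPKM, a ratio of 1.47 (1.27 to 1.69) and a change of 0.68. These neighbours thus both had a positive change, and the median change of 1191 tested genes on chromosome 11 was 0.04.

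Cbx7 and Cbx6 were the 2 genes lower in the library labelled Eed-/-, and neither reached 2-fold. The deposited FPKM of Cbx7 was 24.0 (22.1 to 26.1) in WT against 12.7 (11.3 to 14.4) in the other library, without overlap. Its level in WT was 1.89 times that in the library labelled Eed-/-, and the ratio of Eed-/- to WT was 0.530 (0.457 to 0.616). The change was -0.71. For Cbx6, a less studied CBX gene, the deposited FPKM was 5.63 (4.92 to 6.41) and 3.34 (2.77 to 3.98), a ratio of 0.595 (0.471 to 0.741) and a change of -0.51. These 2 genes are neighbours on chromosome 15 of mm9, both on the minus strand, with Cbx6 from 79654326 to 79665118 and Cbx7 from 79746237 to 79801549, and lie 81.1 kb apart. The median change of 523 tested genes on this chromosome was 0.01. Cbx6 overlaps the annotated gene Npcd on the same strand, which was at 0.000334 FPKM in WT against 1.57 in the library labelled Eed-/-, so fragments of Cbx6 could have been split between the 2 symbols and its values are uncertain.

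The PHC genes and Scmh1 differed little between the libraries. The deposited FPKM of Phc1 was 34.3 and 36.1, with overlapping intervals and a ratio of 1.05 (0.961 to 1.15). Its change was 0.26 after quantile normalization and 0.07 with FPKM as deposited. Phc2 had 3.62 FPKM (2.94 to 4.42) in WT, 4.65 FPKM (3.82 to 5.59) in the other library, a ratio of 1.28 (0.968 to 1.70) and a change of 0.40. Phc3, the lowest PHC gene in both libraries, had 1.16 FPKM (0.939 to 1.43) and 1.39 FPKM (1.13 to 1.70), a ratio of 1.20 (0.888 to 1.61) and a change of 0.17. Scmh1 had 3.36 FPKM (2.68 to 4.18) and 3.54 FPKM (2.80 to 4.44), a ratio of 1.05 (0.761 to 1.45) and a change of 0.15. For these 4 genes the interval of the deposited ratio included 1, which bounds the difference but does not show equal levels. Phc1 (chromosome 6, 122267749 to 122290579, minus strand), Phc2 (chromosome 4, 128331982 to 128430125, plus), Phc3 (chromosome 3, 30798217 to 30868337, minus) and Scmh1 (chromosome 4, 120077886 to 120202804, plus) are not neighbours of each other in mm9.

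The ratio of deposited FPKM left out 1 for 5 genes, Cbx2, Cbx6, Cbx7, Cbx8 and Bmi1. After median-ratio scaling of the libraries, whose use for these intervals, unlike that for the changes, was chosen after seeing the data, it left out 1 for these 5 and also for Phc1, at 1.18 (1.07 to 1.29), and Phc2, at 1.44 (1.08 to 1.90). It still included 1 for Phc3 (0.994 to 1.80) and Scmh1 (0.851 to 1.63). Whether Phc1 and Phc2 differed beyond counting error thus depended on the scaling of the libraries. No direction of the 9 changes did.

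**Figure D3:**
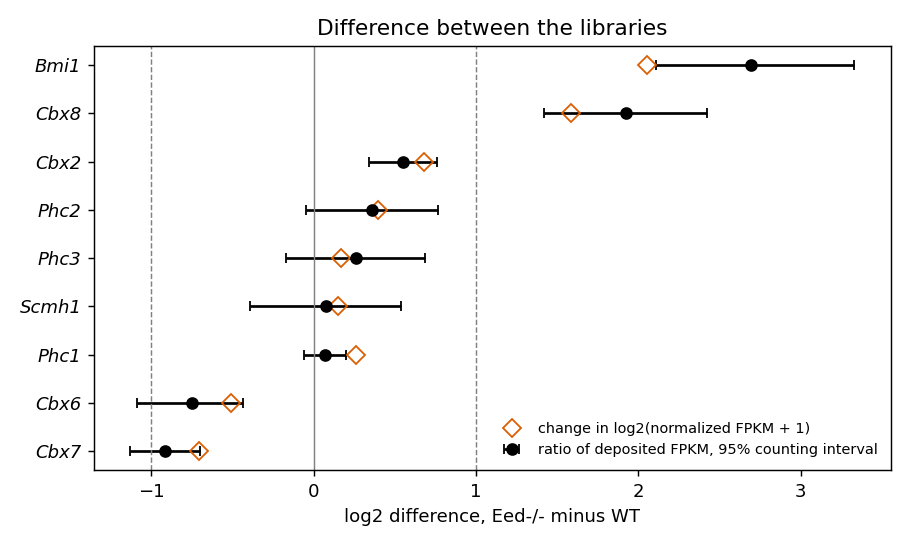
Difference between the libraries for each gene on a log2 scale, Eed-/- minus WT. Black points are ratios of deposited FPKM with 95% counting intervals, orange diamonds are changes in log2(normalized FPKM + 1), and dashed lines mark 2-fold. Bmi1 and Cbx8 lie beyond the dashed line on the right, with changes of 2.05 and 1.59, and the intervals of Phc1, Phc2, Phc3 and Scmh1 cross 0.

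Which paralog led its family was read from shares of the summed deposited FPKM. In WT, Cbx7 made up 54.0% of the 4 CBX genes, with a counting interval of 51.1 to 56.9%, and was 1.84 times the level of Cbx2. Cbx2 made up 29.3% (26.7 to 32.0), Cbx6 12.6% (11.1 to 14.3) and Cbx8 4.09% (3.00 to 5.43). In the library labelled Eed-/- Cbx2 led with 45.4% (42.3 to 48.6), at 1.5 times the level of Cbx7, which made up 30.3% (27.3 to 33.4). Cbx8 then made up 16.4% (14.1 to 18.9) and Cbx6 7.95% (6.61 to 9.47), so these genes also changed places. None of the 4 share intervals of one library overlapped that of the same gene in the other. The CBX sum itself was 44.5 FPKM in WT against 42.1 FPKM in the library labelled Eed-/-.

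The PHC family kept its order. Phc1 made up 87.8% (86.0 to 89.4) of the summed PHC FPKM in WT against 85.7% (83.7 to 87.5) in the library labelled Eed-/-, with overlapping intervals. Its level was 9.49 and 7.77 times that of Phc2. Phc2 made up 9.25% and 11.02%, and Phc3 2.97% and 3.31%. The PHC sum was 39.1 FPKM in WT against 42.2 FPKM in the other library.

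**Figure D4:**
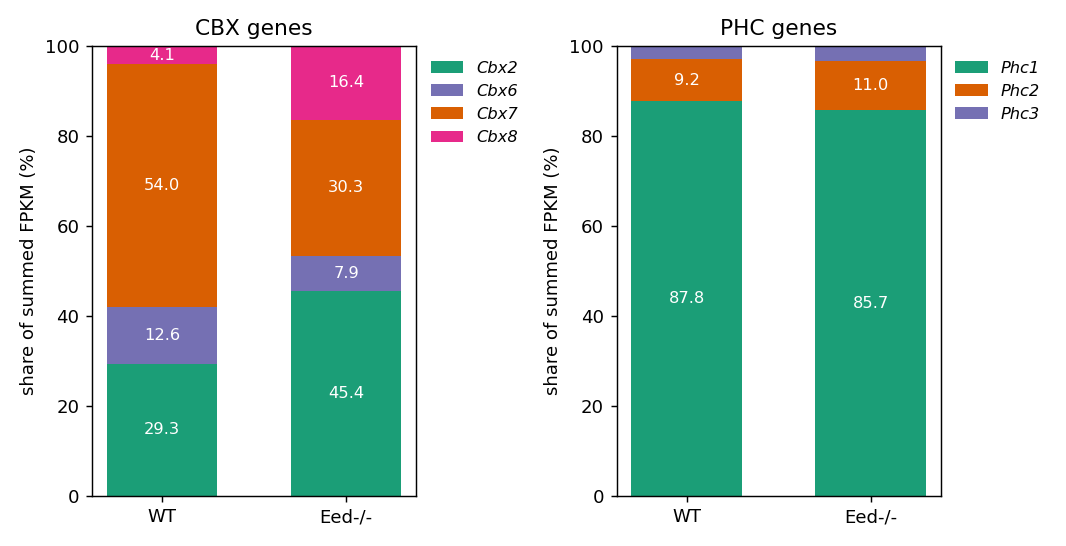
Share of the summed deposited FPKM (percent, y axis) taken by each CBX gene (left) and each PHC gene (right) in the WT and Eed-/- libraries. Cbx7 holds 54.0% in WT and 30.3% in the other library and Cbx2 29.3% and 45.4%, while Phc1 holds 87.8% and 85.7%.

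Bmi1 and Scmh1 were set beside the paralogs that can take their place in canonical PRC1. Pcgf2, also known as Mel18, was at 11.2 and 14.8 FPKM, a change of 0.51. Bmi1 made up 9.23% (6.16 to 13.2) of the sum of Bmi1 and Pcgf2 in WT against 33.2% (28.7 to 38.0) in the library labelled Eed-/-. Pcgf2 thus had the higher level in both libraries, by 9.83 and 2.01 times. Scmh1 made up 90.9% (84.1 to 95.4) of the sum of Scmh1 and its paralog Scml2 in WT against 64.8% (56.4 to 72.5) in the other library. Scml2 was at 0.337 and 1.92 FPKM, a change of 1.16, and lies on chromosome X, where the median change of 518 tested genes was 0.46. Among the RING ligases, Rnf2 at 50.7 and 52.6 FPKM had a change of 0.27 and Ring1 at 3.58 and 1.5 FPKM a change of -0.81. With FPKM as deposited the change of Rnf2 was 0.05. Rnf2 lies on chromosome 1, where the median change of 752 tested genes was -0.29.

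Other Polycomb genes were counted by list, on the same log2(FPKM + 1) scale. Among all 14835 genes tested, 3.80% were at least 2-fold higher and 3.98% lower. Of the 4 canonical PRC1 genes Pcgf2, Scml2, Ring1 and Rnf2, 1 was at least 2-fold higher (Scml2), 0 were lower, and the median change was 0.39. Ring1 did not pass 2-fold on this scale, which understates the change of low genes. Its deposited FPKM in WT was 2.38 times that in the library labelled Eed-/-. The counting interval of that ratio, 1.44 to 4.01, spanned 2. Variant PRC1 assembles without the CBX and PHC proteins of canonical PRC1. Of its 15 listed genes, 2 were higher and 0 lower, with a median of 0.34, from -0.07 for Pcgf6 to 1.27 for Bcorl1. The other gene past 2-fold was Bcor, named after its value of 1.03 was seen, which was 0.89 with FPKM as deposited. Bcorl1 and Bcor lie on chromosome X, like Scml2. Of 6 PRC2 core genes none passed 2-fold, with a median of -0.27, from -0.73 for Ezh2, the methyltransferase, to 0.40 for Eed. Of 6 PRC2 accessory genes Phf19, at 13.7 and 2.61 FPKM, was lower by more than 2-fold with a change of -1.92, the highest change was 0.98 for E130012A19Rik, and the median was 0.26. None of 4 PR-DUB genes passed 2-fold, with changes from -0.08 for Asxl1 to -0.01 for Asxl2. None of 5 tested SCM and MBT genes outside the complex did, with changes from -0.54 for Sfmbt1 to 0.37 for Sfmbt2.

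The HP1 genes, which share the chromodomain and the CBX name but bind methylated lysine 9 of histone H3, showed no difference past 2-fold. Cbx1 was at 122 and 101 FPKM, a change of 0.02, Cbx5 at 41.4 and 28.2 FPKM, a change of -0.36, and Cbx3 at 3.91 and 2.67 FPKM, a change of -0.34. Cbx3 has 1 near-identical copy in the genome and its values are uncertain, whereas 0 of the 9 genes had such a copy. Over all 44 genes of these lists, 43 could be tested, 3 were at least 2-fold higher, 1 was lower, and the median change was 0.09. Counts this small cannot be set apart from the background of 3.80% higher and 3.98% lower. The 3 higher genes, Scml2, Bcorl1 and Bcor, all lie on chromosome X, where the median change of tested genes was 0.46.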

How the data were processed

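RNA-seq of WT and Eed-/- mESCs was used, with 1 library per genotype. Strand-specific libraries were made from total RNA depleted of ribosomal RNA. The authors mapped reads to mm9 and estimated transcript levels, and they deposited 1 FPKM value per gene symbol entry. The submitters' processing notes name TopHat2 2.0.11, Bowtie2 2.2.2 and Cufflinks 2.2.1. The annotation and options were not given in the sources used here. The DNA methylation, ChIP-seq and 4C-seq samples were not analysed here.

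Repeated entries of 268 symbols were added up and the 2 libraries quantile-normalized. Changes were differences in log2(FPKM + 1), and genes with a mean of at least 0.1 were tested against a threshold of 2-fold. Intervals for levels were exact Poisson and those for ratios and shares Clopper-Pearson, all at 95% and for counting error only. They rest on depth recovered from the FPKM steps of genes with 1 annotated transcript, each shortened by 180 bp. After shuffling the lengths, 20.1% (WT) and 21.0% (Eed-/-) of low values were near whole numbers. An FPKM of 2 on 2 kb stood for 26.3 (WT) and 23.5 (Eed-/-) fragments. Positions came from GENCODE vM1 on NCBIM37 (mm9). Copies were sought with minimap2 2.31 (80% of the length, 95% identity). Python 3.11.15, numpy 2.4.6, pandas 2.3.3 and scipy 1.17.1 were used, and the computations were tested on simulated data. All 9 genes were named whatever their values, Pcgf2, Scml2, Ring1, Rnf2 and the HP1 genes likewise, and in every other list the genes with the highest and lowest change. Some items of the lists are not reported here. The genes, lists and markers were chosen with earlier results of these data known. Alternatives were FPKM as deposited, median-ratio scaling, pseudocounts of 0.1 and 0.01, other filters, fold thresholds of 3 and 1.5, expressed levels of 1 and 0.5, and other lengths.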

Additional observations from a re-analysis of the deposited data

How the results depend on the processing

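Bmi1 and Cbx8 were the 2 genes at least 2-fold higher under each scaling, pseudocount and filter tried and at a 3-fold threshold. At 1.5-fold, 3 genes were higher and 1 was lower (Cbx7). Of 54 changes of single genes over 6 alternatives, 49 stayed within counting error of the value reported, 5 moved and 0 changed sign: with pseudocounts of 0.1 and 0.01 Bmi1 was at 2.70 and 2.79 and Cbx8 at 1.99 and 2.05, and with FPKM as deposited Phc1 was at 0.07. By approximate fragments in place of FPKM, the share of Cbx7 in WT was 47.5% and that of Phc1 84.2% in WT against 81.9% in the library labelled Eed-/-, since longer transcripts give more fragments per FPKM. The fewest fragments behind any of the 9 genes were 28.0 in WT (Bmi1) against 76.7 in the library labelled Eed-/- (Scmh1) with the longest transcript as the length, and 1.47 (Bmi1) and 5.83 (Cbx6) with the shortest coding transcript, which could not be computed for Cbx8. Shares over a wider CBX family were not run. Under the shorter length, 3 of 8 ratio intervals left out 1, those of Cbx2, Cbx7 and Bmi1. No paired analysis was possible because each genotype had 1 RNA-seq library, and the spread between cultures is unknown.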
